A study of Mus musculus with 16 samples.

Results

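The regions described here were marked by H2AK119ub1 (histone H2A carrying a single ubiquitin on a lysine of its tail) in hematopoietic stem cells (HSCs) of both young and aged mice. They were chosen by overlap: a region of the aged H2AK119ub1 list on chromosomes 1 to 19 was kept when at least 1 bp of it also lay in a region of the young list. Of 16796 aged regions, 1247 (7.42%) met this rule, and they are called shared regions. The other 15549 are called aged-only. On the young side, the shared regions overlapped 1311 of 2535 regions (51.7%, 95% Wilson interval 49.8 to 53.7), which left 1224 young-only regions. Young mice were 10 weeks old and aged mice 20 months old, all of the C57BL/6 strain and without any treatment named in the labels. HSCs were sorted from bone marrow as Sca-1+, c-kit+ and CD150+ cells that were Lin- and IL-7- and lacked CD34, CD48 and Flt3. ChIP-seq (sequencing of chromatin precipitated with an antibody) was performed for 3 histone marks, with 2 libraries for each mark and age besides the inputs, 16 libraries in all. The peaks came as 1 pooled list per mark and age. The spread between libraries could therefore not be measured, no difference was tested, and the intervals given here cover counting error only.

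H2AK119ub1 is placed by Polycomb repressive complex 1 (PRC1), whose catalytic subunits are RING1 and RNF2. H3K27me3, the trimethylation of histone H3 at lysine 27, is placed by Polycomb repressive complex 2 (PRC2) through EZH1 or EZH2. Each mark can help to recruit the complex that places the other, and together they keep genes of other lineages silent, above all the transcription factors that pattern the embryo. In HSCs the complexes also hold back genes of the cell cycle and of blood lineages. H3K4me3 marks active promoters, and a promoter with both H3K4me3 and H3K27me3 is called bivalent.

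The lists differed widely in length, and the depth of the libraries behind them is unknown. On chromosomes 1 to 19, the young H3K27me3 list held 50640 regions over 35.6 Mb and the aged list 15926 regions over 8.42 Mb. The H3K4me3 lists held 11279 young and 6686 aged peaks. For H2AK119ub1 the order of the ages was opposite, with 0.942 Mb covered in the young list and 7.19 Mb in the aged list. The names inside the broad lists carry a single library number, so it is unclear whether both libraries entered each of them. H3K4me3 peaks at promoters gave little check of the sort: of the 3 genes that the gate requires, Kit had a peak in the aged list, and Ly6a (Sca-1) and Slamf1 (CD150) had none at either age. Of the 4 genes absent by the gate, Cd34 had a young peak, and 1 of 7 genes of other blood cells had a young peak. None of these 14 promoters held a shared H2AK119ub1 region.

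The sequences under the widest shared regions show where the mark lay at both ages. Each is the 200 bp at the centre of the overlap between the lists, on the plus strand of mm10, with CpG dinucleotides in capitals, for 5 of the 6 widest regions of the aged list whose window touches no UTR. All 5 regions also carried H3K27me3 at both ages, and the nearest start site belongs to the gene named.
Lhx9, chr1:138842988-138843187: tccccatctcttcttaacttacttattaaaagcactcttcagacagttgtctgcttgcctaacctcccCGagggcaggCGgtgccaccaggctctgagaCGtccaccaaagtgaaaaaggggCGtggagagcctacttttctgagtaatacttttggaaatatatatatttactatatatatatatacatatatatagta
Tbx2, chr11:85836139-85836338: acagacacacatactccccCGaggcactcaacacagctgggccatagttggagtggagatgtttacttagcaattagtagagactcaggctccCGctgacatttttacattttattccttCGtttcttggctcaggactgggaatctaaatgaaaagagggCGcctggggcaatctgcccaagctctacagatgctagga
Tbx15, chr3:99254739-99254938: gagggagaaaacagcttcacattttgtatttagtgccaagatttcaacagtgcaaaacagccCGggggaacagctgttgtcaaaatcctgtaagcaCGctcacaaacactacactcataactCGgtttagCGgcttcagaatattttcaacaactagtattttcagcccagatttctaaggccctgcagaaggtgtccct
Hoxa11, chr6:52244593-52244792: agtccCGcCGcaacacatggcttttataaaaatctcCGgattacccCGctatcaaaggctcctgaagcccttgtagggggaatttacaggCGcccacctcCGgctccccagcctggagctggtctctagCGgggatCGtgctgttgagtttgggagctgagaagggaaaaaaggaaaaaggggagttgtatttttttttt
Alx4, chr2:93648316-93648515: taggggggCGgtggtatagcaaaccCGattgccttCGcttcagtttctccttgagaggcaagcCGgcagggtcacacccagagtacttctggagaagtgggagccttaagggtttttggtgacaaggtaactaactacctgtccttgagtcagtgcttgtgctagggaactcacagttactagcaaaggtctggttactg
These windows held 4 to 8 CpG dinucleotides and 40.5 to 51.5% G and C. All 5 lay in introns, of the LIM homeobox factor gene Lhx9, of the T-box genes Tbx2 and Tbx15, of Hoxa11 and of Alx4, and the Tbx15 window also lay in an exon of the antisense gene Gm43120. By the same steps, the windows of the 3 widest shared regions that overlapped no H3K27me3 in either list are shown for contrast. The windows lay in an intron of Gfi1, which encodes a transcriptional repressor needed for HSC quiescence, in an intron of the antisense gene Gm2164 near Pou3f1, and in intergenic sequence of chromosome 7.
Gfi1, chr5:107719819-107720018: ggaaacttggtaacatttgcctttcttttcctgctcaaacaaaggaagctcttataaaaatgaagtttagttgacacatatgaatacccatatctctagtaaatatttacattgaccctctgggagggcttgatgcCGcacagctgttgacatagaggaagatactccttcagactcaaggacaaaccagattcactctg
Pou3f1, chr4:124656046-124656245: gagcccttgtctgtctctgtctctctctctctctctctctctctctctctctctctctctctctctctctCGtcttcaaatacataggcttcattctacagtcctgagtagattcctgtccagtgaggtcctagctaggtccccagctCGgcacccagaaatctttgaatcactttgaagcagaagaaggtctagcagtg
Intergenic, nearest to Slc7a10, chr7:35155610-35155809: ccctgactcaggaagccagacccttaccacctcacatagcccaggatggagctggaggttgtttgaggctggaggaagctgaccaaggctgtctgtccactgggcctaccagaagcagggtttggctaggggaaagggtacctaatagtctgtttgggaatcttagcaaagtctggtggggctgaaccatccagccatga
These 3 windows held 0 to 2 CpG dinucleotides, and the Pou3f1 window holds a run of TC repeats.

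Shared regions were wider in the aged list than in the young list. The median width was 682 bp in the aged list (95% interval of the median 642 to 730, n = 1247), and the young regions they overlapped had a median of 371 bp (358 to 382, n = 1311). The aged region was wider than all its young regions together in 930 of 1247 cases (74.6%), with a median ratio of 1.64 (1.56 to 1.72) and quartiles of 1 and 2.75. Most shared regions, 1146, overlapped 1 young region, 101 overlapped 2 or 3, and 47 young regions reached into more than 1 shared region. The median overlap was 244 bp, or 37.6% of the aged region, and 482 of 1311 young regions (36.8%) lay wholly within a shared region. Across the shared regions, aged and young width were weakly related (Spearman's rho 0.27), and fold enrichment was not (rho −0.05), where fold enrichment is the signal over the local background as the peak caller wrote it. Since the overlap chose the regions, and a wide region is more likely to overlap, widths and heights in these lists are given as a description.

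**Figure D1:**
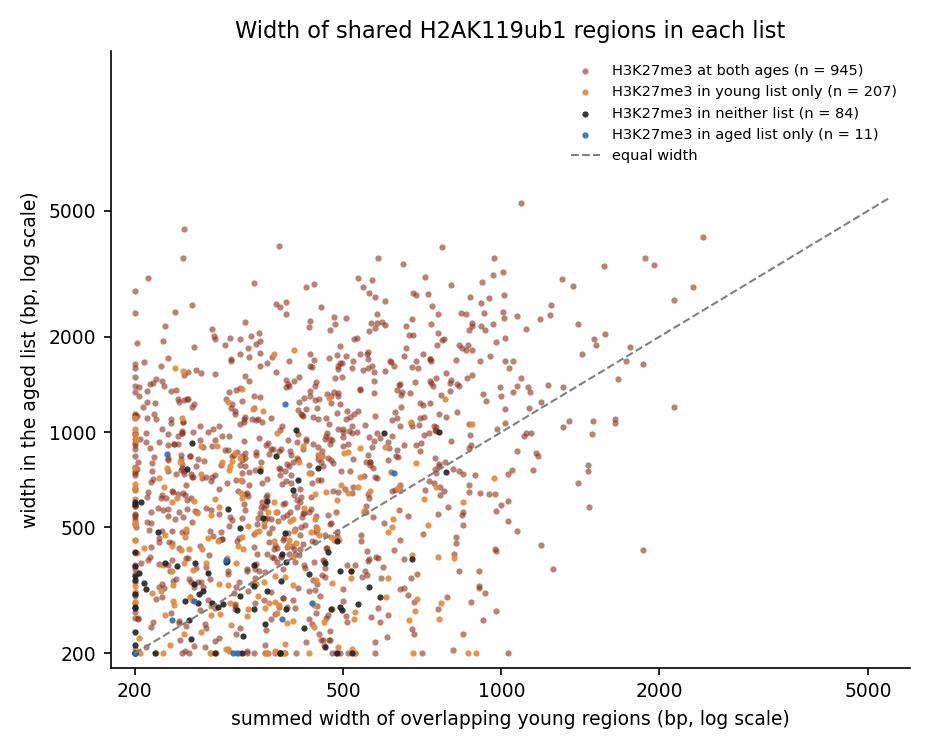
Each point is 1 of the 1247 shared regions, with the summed width of the young regions it overlaps on the horizontal axis and its width in the aged list on the vertical axis (both in bp, log scale), coloured by overlap with H3K27me3. Of the points, 930 lie above the line of equal width, and the 84 regions without H3K27me3 all lie at aged widths of 1015 bp or less.

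The fold enrichment of shared regions had a median of 3.40 in the aged list and 3.16 in the young list, with a range of 1.42 to 5.07 in the aged list, and 871 of 1247 (69.8%) had the higher value in the aged list. The −log10 of the q-value had a median of 2.13 in the aged list against 1.70 in aged-only regions, and 1.78 in the young list against 1.79 in young-only regions. In the aged list 378 shared regions (30.3%) were wider than 1 kb, compared with 501 aged-only regions (3.22%). Shared regions made up 3.04% of aged regions under 400 bp and 57.7% of those of 1600 bp or more.

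The widest shared regions lay at genes of embryonic transcription factors. The widest of all, at Lhx9 on chr1:138839615-138844890, covered the promoter, a coding exon and a UTR, and measured 5276 bp in the aged list at a fold enrichment of 3.50, whereas its 2 young regions summed to 1090 bp. At Tbx2, a T-box factor of heart and limb, chr11:85833597-85837716 measured 4120 bp and its 3 young regions summed to 2422 bp, so this region was wide at both ages. Also among the 10 widest were regions at Tbx15 (3878 bp aged and 376 bp young), Hoxa11 (3849 and 771 bp), Alx4 (3553 and 970 bp), Sox1 (3542 and 582 bp) and Isl2 (3535 and 247 bp). Another of the 10 widest differed from these. It lay on chr17:39843213-39846756, over a ribosomal RNA gene model and the lincRNA Gm26917 and far from any coding start site (103764 bp to Esp38), with a width of 3544 bp, a GC share of 67.8%, and a fold enrichment of 2.05 at 20 months and 1.499 at 10 weeks. Its −log10 q of 4.87 was among the 5 highest of the aged list.

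The regions that were widest in the young list lay around Hoxa13, Evx1 and Tbx2. The widest young region, of 1863 bp at Hottip, a lincRNA beside Hoxa13, was met in the aged list by separate regions of 425 and 1202 bp. At Evx1, a homeobox gene next to the Hoxa cluster, a young region of 1644 bp was met by aged regions of 1101 and 1064 bp. Large ratios of aged to young width were at Lbx1 (14.4), Isl2 (14.3), in an intergenic stretch 19859 bp from Hoxb13 (13.9) and at Islr2 (11.8). The smallest ratios, 0.194 to 0.253, were at Rax, Scrt2, Hoxa13, Pax8 and Hoxb13, where a short aged region met a young region of 809 to 1863 bp.

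The 5 strongest shared regions in the aged list by q-value measured from 207 bp at Hand2 to 3544 bp over the ribosomal RNA gene model. A region of 248 bp upstream of Cxcl12, the chemokine that retains HSCs in the marrow, had the highest fold enrichment (5.07) and −log10 q (6.04), and its young region of 272 bp had a fold enrichment of 3.59. Regions at Hoxa13 (−log10 q of 5.51), Hand2 (5.11) and Wt1 (5.09) followed. In the young list, regions at Nkx2-4 (4.55), Lhx1 (4.23), Msi1 (4.04), Ucn (3.91) and Vrtn (3.90) were the strongest, and in the aged list the same places had a −log10 q of 1.51 to 2.47. The orders of strength at the 2 ages thus had no region in common among their first 5.

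Near the limit of the rule, the shortest overlaps were 3 bp, in introns of Ripk4, Srrm3 and Map6, where the aged regions measured 277, 274 and 251 bp. Among the nearest aged-only regions, those near Barx1 and Osmr missed a young region by 1 and 2 bp. In all, 135 aged-only regions lay within 100 bp of a young region and 1229 within 1 kb.

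Nearly all shared regions carried H3K27me3, which the choice of regions did not use. Overlap with the young H3K27me3 list was found for 1152 of 1247 shared regions (92.4%, 95% Wilson interval 90.8 to 93.7), against 43.7% of all aged H2AK119ub1 regions and 39.8% (39.04 to 40.6) of aged-only regions. For the aged H3K27me3 list the count was 956 (76.7%, 74.2 to 78.9), against 26.5% of all aged regions and 22.5% (21.9 to 23.2) of aged-only regions. Young-only regions lay between, with 56.5% under young and 29.4% under aged H3K27me3. H3K27me3 was listed at both ages under 945 shared regions (75.8%, against 25.6% of all aged regions), in the young list alone under 207, in the aged list alone under 11, and in neither under 84 (6.74%, against 55.4%).

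Since shared regions were the wider ones and a wide region has more bases to overlap, the shares were also read at matched width. Among regions under 400 bp, 79.5% of 332 shared regions overlapped young H3K27me3, compared with 30.4% of 10601 aged-only regions. From 400 to 800 bp the shares were 94.9% of 390 and 53.8% of 4017, and from 800 to 1600 bp 98.0% of 357 and 85.3% of 808. Among regions of 1600 bp or more, the shares were 100% of 168 and 98.4% of 123. With only the central 200 bp of each region, 89.4% of shared (87.6 to 91.0) and 37.9% of aged-only regions (37.2 to 38.7) overlapped young H3K27me3, and 65.3% and 19.3% aged H3K27me3. With the aged list cut to its 2535 strongest regions, as many as the young list holds, the shares with young H3K27me3 were 95.5% of 403 shared and 57.3% of 2132 other regions. The shares of the 2 sets were far apart under 800 bp, in the central 200 bp and with the aged list cut. They were closer from 800 to 1600 bp and nearly equal above. No replicate error could be set beside the differences.

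**Figure D2:**
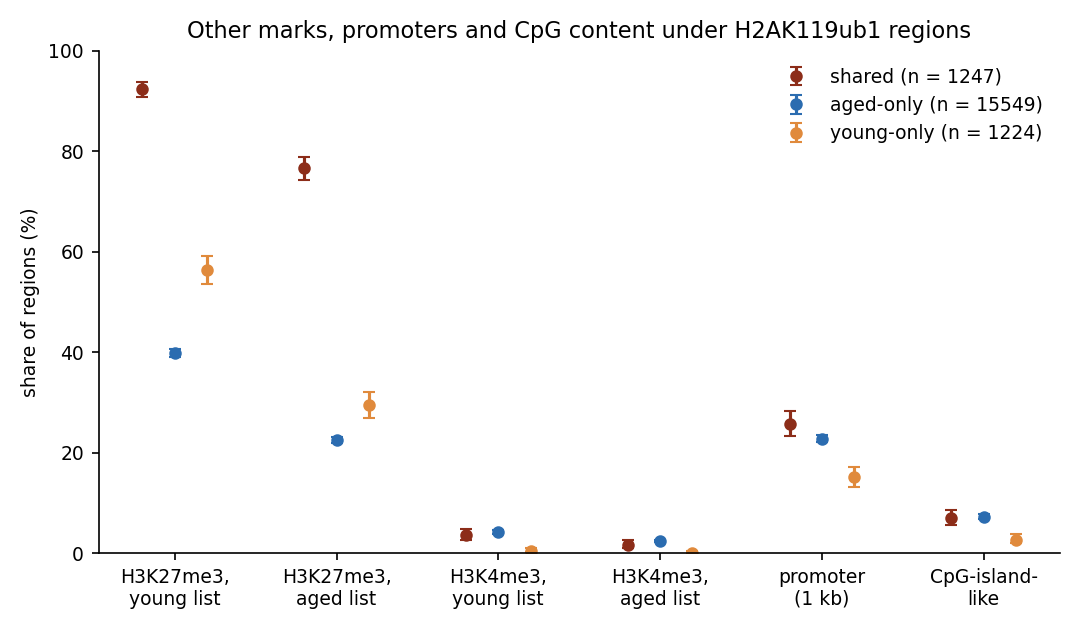
Points give the share of shared (n = 1247), aged-only (n = 15549) and young-only (n = 1224) H2AK119ub1 regions that overlap H3K27me3, H3K4me3 or a promoter or are CpG-island-like, in percent, and bars give 95% Wilson intervals. Shared regions stand apart for H3K27me3 (92.4% young, 76.7% aged) and lie close to aged-only regions in the other shares.

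The H3K27me3 that overlapped the shared regions came in wide domains at the young age. Bases covered by young H3K27me3 made up 91.7% of the bases of shared regions and 43.6% of those of aged-only regions, and 935 of 1247 shared regions (74.98%) lay wholly inside. The widest young H3K27me3 region under a shared region had a median of 5585 bp (5153 to 6071), compared with 2297 bp under an aged-only region and 411 bp for all young H3K27me3 regions. A wide domain is more likely to be met, so the 411 bp is no baseline. Shared regions were also wider than aged-only regions (medians of 682 and 317 bp), and the domain widths were not read at matched width. In the aged list, H3K27me3 covered 60.1% of the bases, 265 shared regions (21.2%) lay wholly inside, and the median width of the widest region was 1043 bp (994 to 1117). Of the 107 young H3K27me3 domains wider than 10 kb, 94 (87.9%, 80.3 to 92.8) held a shared region, whereas 59.8% of the 490 wider than 5 kb and 1.66% of all 50640 did. Any aged H2AK119ub1 region, shared or not, lay in 107 of the 107, in 96.7% of those wider than 5 kb and in 9.31% of all.

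Around the centres of shared regions, young H3K27me3 declined slowly, covering 86.9% of the regions at the centre, 57.4% and 56.8% at 5 kb to either side, and about 44% at 10 kb (44.5 and 43.9%). Aged H3K27me3 had a narrower summit, at 56.0% in the centre and 36.0% and 35.3% at 2.5 kb. Around aged-only regions the values at the centre were 34.6% and 15.4%.

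**Figure D3:**
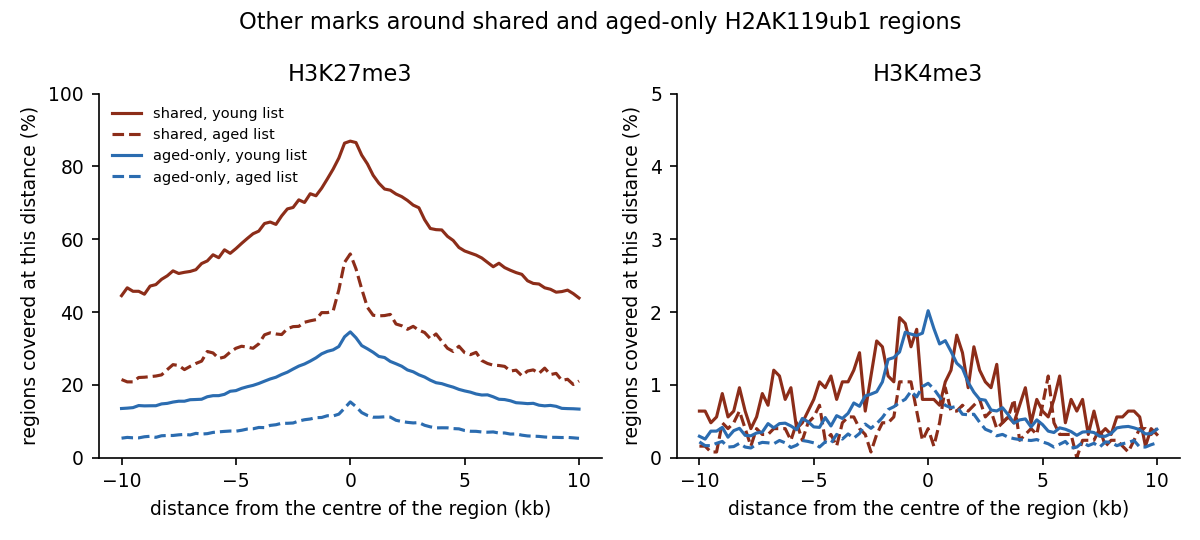
Lines give the percent of shared (red) and aged-only (blue) H2AK119ub1 regions covered by H3K27me3 (left panel) or H3K4me3 (right panel, with a vertical axis ending at 5%) at each distance from the region's centre in kb, solid for the young and dashed for the aged list. At the centre H3K27me3 covers 86.9% (young) and 56.0% (aged) of shared regions, and H3K4me3 covers 0.802% and 0.401%.

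The shared regions that had H3K27me3 at both ages were the widest of the 4 classes, with a median of 818 bp against 447 bp where H3K27me3 was in the young list alone, 288 bp where it was in the aged list alone and 336 bp where it was in neither. Their median ratio of observed to expected CpG was also the highest, 0.357 against 0.264, 0.244 and 0.209. Regions with H3K27me3 in the young list alone were most often at promoters (70 of 207, 33.8%).

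Some of the 84 shared regions without H3K27me3 lay at genes of blood cells. The widest, of 1015 bp on chr5:107719188-107720202, touched a coding exon of Gfi1 and had a fold enrichment of 3.68 in the aged list, and its young region of 406 bp had one of 2.95. Next were regions near Pou3f1, a POU factor of neural and glial cells (998 bp aged, 759 bp young), in the intergenic stretch of chromosome 7 shown above (996 and 598 bp), in an intron of Mras, a RAS-related GTPase (924 and 257 bp), and near Dll4, a Notch ligand (839 and 372 bp). The intergenic region had a ratio of observed to expected CpG of 0.0147, and a second region without H3K27me3 lay 609 bp away from it, on chr7:35154194-35154580. A further one, of 200 bp, lay 2979 bp from the start of Cebpa, the myeloid factor gene. Regions of this class also lay at Irf8 (822 bp from the start), a factor of monocytes and dendritic cells, at Klf1 (513 bp), a factor of red cells, at Zbtb16 (2330 bp), a factor of stem cells and innate T cells, and at Rara (2031 bp), a retinoic acid receptor. The genes from Cebpa to Rara were chosen after their values were seen, from a class of mixed makeup: 21 of the 84 regions were at promoters, among them those of the neuronal gene Grin2d and the sodium channel gene Scn11a. The share of blood genes in this class or in the other shared regions was not counted. In the aged list the −log10 q of the chosen regions ran from 1.18 at Rara to 1.93 at Irf8. The class had a median of 1.69, and the lowest value of any shared region was 1.14. The class was set by the region alone. Elsewhere in the promoter, Irf8 had H3K27me3 in the young list and Grin2d in both lists, whereas Klf1 and Scn11a had none. Of the 84 regions, 1 overlapped a young and 2 an aged H3K4me3 peak.

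H3K4me3 was rare under the shared regions. It was found in the young list under 45 (3.61%, 2.71 to 4.79), beside 4.15% of all aged H2AK119ub1 regions and 4.19% of aged-only regions. In the aged list it was found under 21 (1.68%, 1.10 to 2.56), beside 2.35% of all and 2.41% of aged-only regions. In the central 200 bp, 1.12% of shared regions (0.670 to 1.88) and 3.09% of aged-only regions (2.83 to 3.38) met young H3K4me3, and 0.401% (0.171 to 0.935) and 1.67% (1.48 to 1.88) met aged H3K4me3. Many regions lie close together and are not replicates, so the intervals are no test of these differences. These shares use the extent of the regions in the aged list. By their extent in the young list, 8 of 1311 (0.61%, 0.31 to 1.2) overlapped young H3K4me3, and 5 of 1224 young-only regions did (0.41%, 0.17 to 0.95). The 5 widest shared regions with aged H3K4me3 were those at Lhx9 and over the ribosomal RNA gene model, an intergenic region on chr13:98500710-98503581 (2872 bp, with H3K4me3 at both ages), a region in an intron of Tbx15 (2382 bp) and a region at Rab30, a vesicle GTPase (1943 bp, H3K4me3 at both ages).

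Most shared regions lay near genes but not at start sites. A promoter, taken as 1 kb to either side of a protein-coding start site, was overlapped by 321 shared regions (25.7%, 23.4 to 28.2), close to the 23.0% of all aged regions and the 22.8% (22.1 to 23.4) of aged-only regions. Of the rest, 92 touched a coding exon (7.38%), 136 another exon (10.9%), 356 an intron only (28.5%) and 342 were intergenic (27.4%). The median distance to a coding start site was 2863 bp (2596 to 3345) for shared and 5842 bp (5597 to 6163) for aged-only regions, and 78.2% (75.8 to 80.4) against 58.4% (57.6 to 59.1) lay within 10 kb. The intron share was lower than that of aged-only regions (38.1%, 37.3 to 38.9), and the share in other exons, noncoding transcripts and UTRs, was higher (10.9%, 9.29 to 12.8, against 5.11%, 4.77 to 5.46). A region that touched any exon was not counted as intron, and a wider region is more likely to touch one. Shared regions were the wider ones (medians of 682 and 317 bp), and the locations were not read at matched width. Of the 722 shared regions within 5 kb of a start site and not over it, 57.6% lay downstream of it (54.0 to 61.2), compared with 61.3% of aged-only regions (60.2 to 62.5).

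A shared region was at the promoter of 289 of 20720 protein-coding genes (1.39%). Of these 289 genes, 276 (95.5%) had young H3K27me3 at the promoter and 227 (78.5%) had aged H3K27me3, compared with 15.8% and 8.20% of all genes. H3K4me3 was at 70 of these promoters in the young list (24.2%) and 32 in the aged list (11.1%), compared with 35.4% and 24.4% of all genes. Both H3K27me3 and H3K4me3, as in bivalent promoters, were listed at 66 of the promoters for young HSCs and at 21 for aged HSCs. The share of all genes with both marks was not taken, so these 2 counts have no baseline. The aged lists of both marks were also the shorter ones. The wider count, of genes with a shared region in the gene or up to 1 kb before it, was 518 (2.5%).

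Of transcription factors that pattern the embryo, 15 families made up 57 of the 289 genes with a shared region at the promoter and 90 of the 518 with one in the gene. Of their 201 genes, which include blood factors such as Tal1 and Gata2, 57 (28.4%) had a shared region at the promoter and 90 (44.8%) in the gene or just before it, beside 1.39% and 2.5% of all genes. The promoter counts use the extent of the region in the aged list. A young H2AK119ub1 region lay at 52 of the 201 promoters, beside 414 of all 20720. Among them were 5 of 12 LIM homeobox, 6 of 15 T-box and 4 of 9 Hoxc promoters, where 8, 8 and 6 had a shared region. Any aged H2AK119ub1 region, shared or not, lay at 136 of the 201, beside 2993 of all 20720. In these 3 families it lay at 12 of 12, 11 of 15 and 9 of 9 promoters. All 12 LIM homeobox genes, which specify neurons and limbs, had a shared region in the gene, and 8 at the promoter (Isl1, Isl2, Lhx1, Lhx2, Lhx3, Lhx9, Lmx1a and Lmx1b). Lhx2 had 8 shared regions that summed to 9449 bp in the aged and 3271 bp in the young list. Of 15 T-box genes, which shape mesoderm, limb and heart, 8 had a shared region at the promoter (Tbr1, Tbx1, Tbx15, Tbx18, Tbx2, Tbx3, Tbx4 and Tbx5). The 4 regions of Tbx2 summed to 10225 bp in the aged and 4012 bp in the young list. Of 9 PAX genes, which direct kidney, eye, muscle and B cell fates, 8 had a shared region in the gene. The B cell factor gene Pax5 had 3, which summed to 2967 bp in the aged and 1730 bp in the young list, and the 2938 bp region at Pax9 met 440 bp in the young list.

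Basic helix-loop-helix factors of neurons and mesoderm had 7 of 31 genes with a shared region at the promoter, among them Neurod1, Neurod2, Neurog1, Neurog2, Olig3 and Tcf21. SOX factors had 4 of 18 (Sox1, Sox14, Sox17 and Sox2), NKX factors of brain, gut and heart 3 of 14 (Nkx2-1, Nkx2-2 and Nkx2-4), forkhead factors 3 of 38 (among them Foxd4 and Foxf2), and the families of Six2 and its EYA partners 2 of 10 (Six2 and Six6). ZIC factors had 1 of 4 at the promoter (Zic4), and the IRX and GATA families had none there but held shared regions within the genes Irx2 and Irx5, and Gata3, Gata4 and Gata6. Gata4, a factor of heart and gut, had 10 shared regions that summed to 12743 bp in the aged and 7041 bp in the young list. The regions of Gata3, a T cell factor, summed to 1194 and 725 bp, and Gata1 and Gata2, the GATA factors of blood, were not among the genes with a shared region (Gata1 lies on chromosome X, outside the regions counted).

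Other gene families are read beside the same shares of all genes, 1.39% at the promoter and 2.5% in the gene. The gene bodies of Cdkn2a and Cdkn2b, the adjacent brakes on the cell cycle that PRC1 is known to hold silent in HSCs, were the only ones of 7 CDK inhibitor genes with a shared region (28.6%). Cdkn2a had 4, which summed to 2113 bp in the aged and 2130 bp in the young list, and Cdkn2b had 1, of 719 and 573 bp, with H3K27me3 at both ages under the widest of each. The width at Cdkn2a was thus nearly equal at the 2 ages. Of 91 potassium channel genes, 6 had a shared region at the promoter (6.59%: Kcnh3, Kcnj10, Kcnj4, Kcnj5, Kcnk4 and Kcnn1). WNT ligands had 1 of 19 in the gene (5.26%, Wnt8b), and BMP and GDF ligands 2 of 17 (11.8%, Gdf6 and Gdf7). Among 22 PRC1 component genes 1 had a shared region, Cbx8, which encodes a chromobox subunit that reads H3K27me3: the region measured 2339 bp in the aged and 1236 bp in the young list. None of 11 PRC2 component genes had one (at most 27.3% by the limit that a count of 0 sets), and neither had any of 55 clustered protocadherin genes (at most 5.45%) or of 73 cytosolic ribosomal protein genes (at most 4.11%). Of the 16 genes listed as HSC transcription factors, Gfi1 alone had one (6.25%). Blood factor genes outside that list, such as Pax5, Gata3 and Klf1, also had shared regions.

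**Figure D4:**
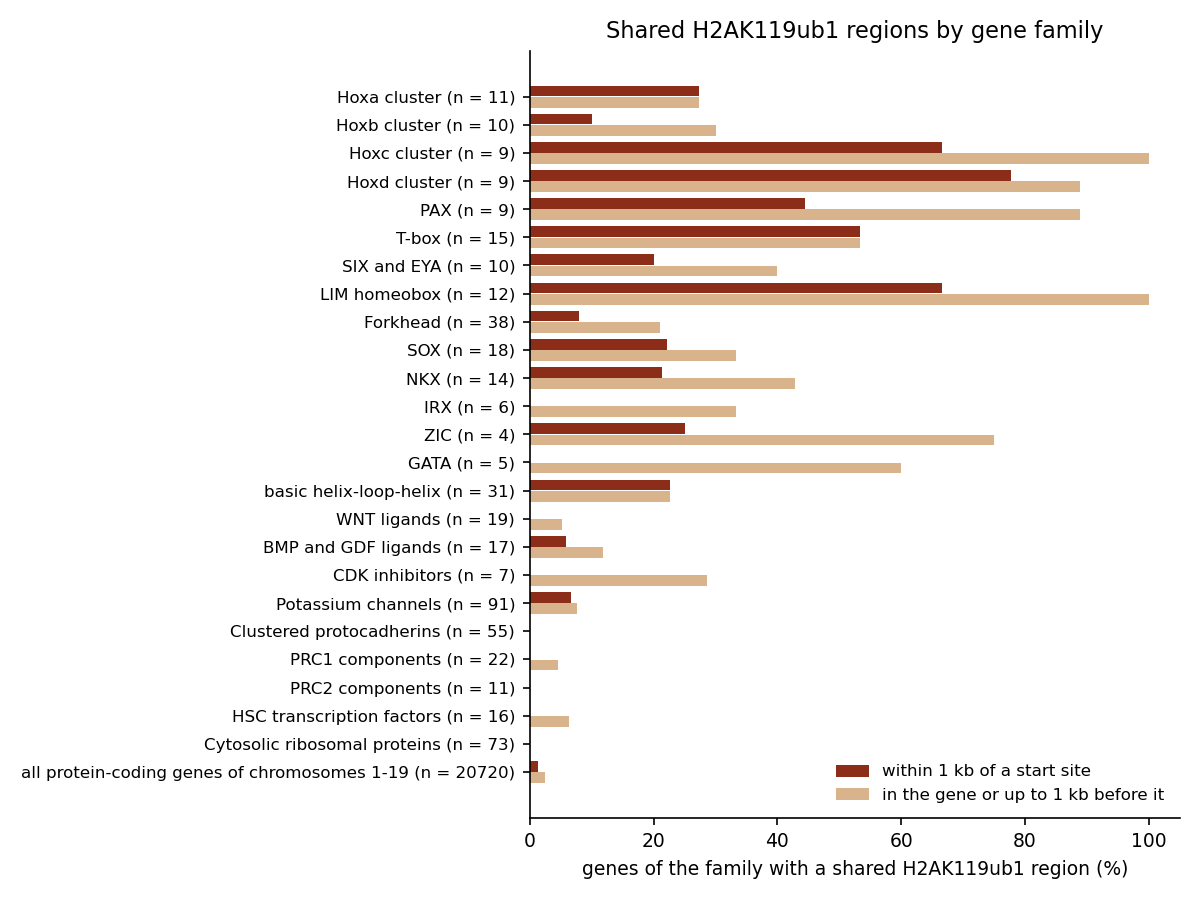
Bars give the percent of the genes of each family with a shared H2AK119ub1 region within 1 kb of a start site (dark) or in the gene or up to 1 kb before it (light), with the number of genes in parentheses. LIM homeobox and Hoxc genes reach 100% for the light bars, and all protein-coding genes stand at 1.39% and 2.5%.

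The 4 Hox clusters, whose genes set position along the body axis, held 70 shared regions in 81.8 kb of shared width. Their share among the aged regions of each cluster (taken with 5 kb to either side) was 30 of 68 in Hoxc, 22 of 56 in Hoxd, 8 of 26 in Hoxa and 10 of 48 in Hoxb. Over all aged regions the share was 7.42%. That share rose with width, to 30.6% at 800 to 1600 bp and 57.7% at 1600 bp or more. The cluster shares were not read at matched width. In Hoxc, the shared regions covered 38.4 kb of a span of 125.8 kb and lay in the body of all 9 genes, where the annotated Hoxc5 extends over several neighbours, with the widest (2957 bp aged, 338 bp young) over a UTR of Hoxc9 on chr15:102984927-102987883. Others lay over exons of Hotair, a lincRNA between Hoxc11 and Hoxc12. In Hoxd, 22 shared regions covered 22.8 kb, from Evx2 to Hoxd1, and the region at Hoxd13 had the highest −log10 q of that cluster in the aged list (4.50, fold enrichment 4.53; 1.64 and 3.07 in the young list). In Hoxa, all 8 lay from Hoxa10 to beyond Hoxa13, and none of the genes from Hoxa2 to Hoxa9 had a shared region at the promoter or in the gene. In Hoxb, 5 were nearest to Hoxb13 and 5 to Hoxb9, Hoxb7 or Hoxb6, of which the pair nearest to the Hoxb13 side lay outside Hoxb9, and none was nearest to Hoxb1 to Hoxb5. All 70 regions overlapped young H3K27me3, and 59 of them aged H3K27me3, beside 92.4% and 76.7% of all shared regions. Over the same spans, young H3K27me3 covered 133.8 kb in Hoxc, 103.2 kb in Hoxd, 81.7 kb in Hoxb and 40.1 kb in Hoxa, counting whole regions that reach beyond the ends, and aged H3K27me3 covered 61.3, 57.8, 21.03 and 16.2 kb.

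**Figure D5:**
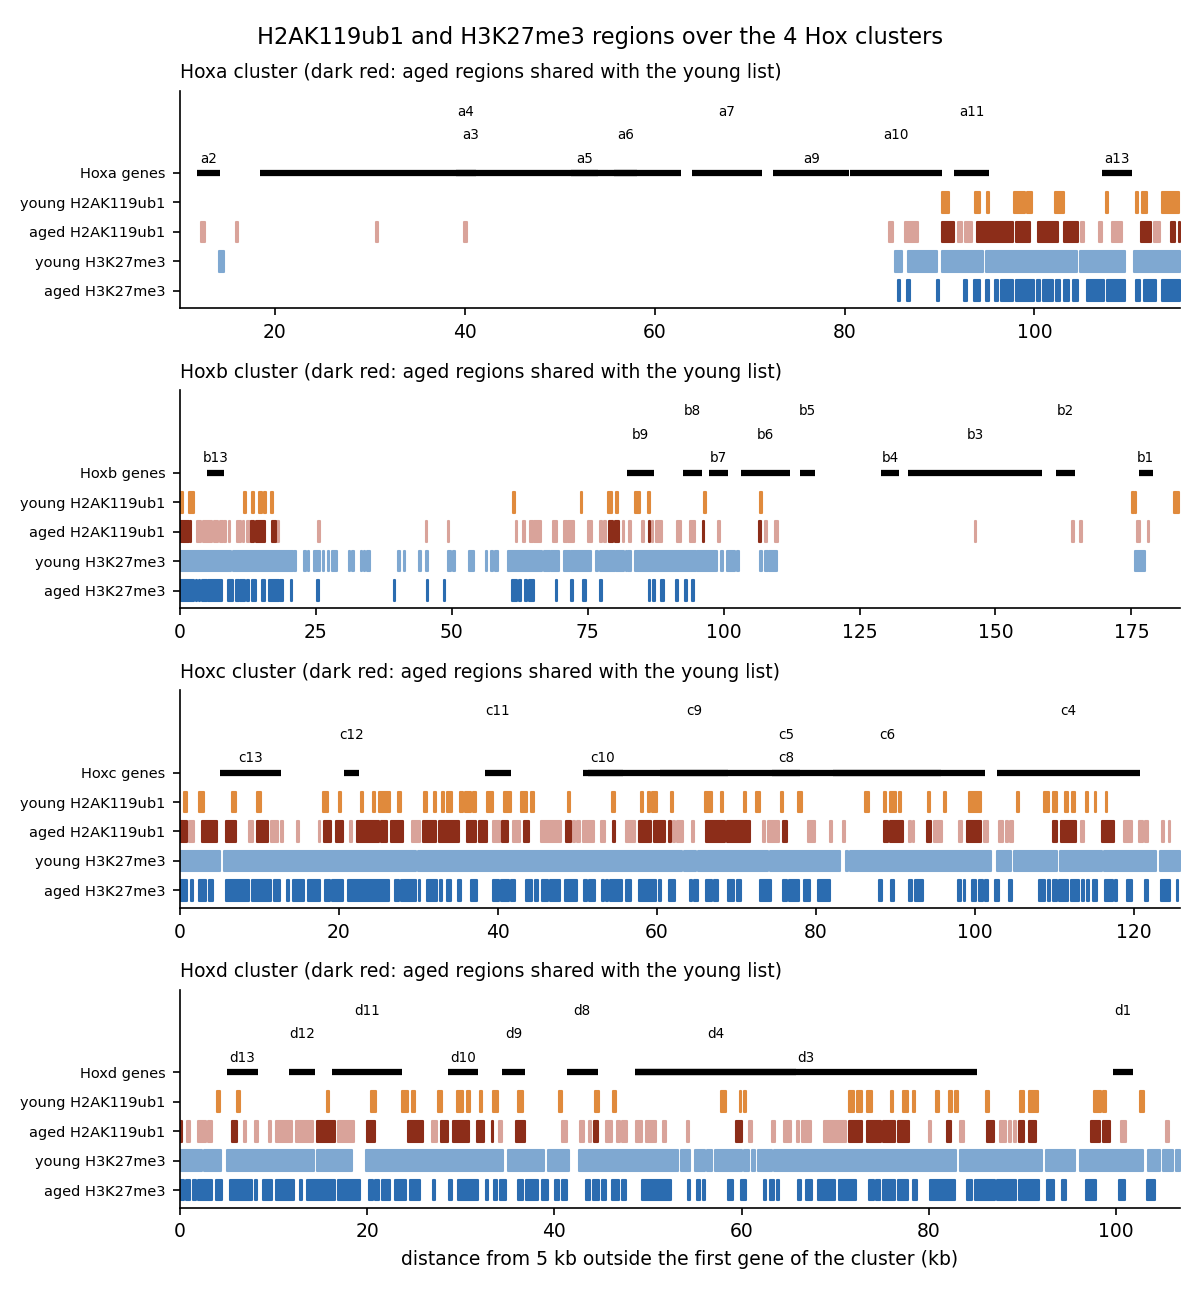
Boxes mark regions over each Hox cluster along the distance in kb from 5 kb outside its outermost gene: young H2AK119ub1 in orange, aged H2AK119ub1 in pale red with shared regions in dark red, young H3K27me3 in pale blue and aged H3K27me3 in dark blue, below the genes in black, with the Hoxa panel drawn from 10 kb on. Shared regions run along the whole of Hoxc (30) and Hoxd (22), and stay at one end of Hoxa (8) and in separate groups of Hoxb (10).

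In base composition the shared regions differed from the other lists in CpG more than in GC. The median GC share was 50.7% (50.3 to 51.0) in shared, 51.0% (50.9 to 51.0) in aged-only and 49.9% (49.6 to 50.2) in young-only regions. The median ratio of observed to expected CpG was 0.327 (0.312 to 0.347), 0.240 (0.236 to 0.244) and 0.192 (0.184 to 0.202). Regions like a CpG island, with over 50% GC and a CpG ratio over 0.6, made up 6.98% of shared regions (5.69 to 8.53). They made up 7.29% of aged-only (6.89 to 7.71) and 2.70% of young-only regions (1.93 to 3.76). The higher median thus came with more island-like regions against young-only regions, but not against aged-only regions. By their extent in the young list, shared regions had a median CpG ratio of 0.2935 (0.2775 to 0.3069), and 6.255% were island-like (5.07 to 7.70). The share of aged regions that were shared was 4.18% (3.49 to 5.01) at a CpG ratio of up to 0.1, 12.7% (11.6 to 14.0) between 0.4 and 0.6, and 8.11% (6.82 to 9.61) above 0.6. Width moved with this measure: among regions under 400 bp the median CpG ratio was 0.245 in shared and 0.220 in aged-only regions, and among those of 1600 bp or more it was 0.426 and 0.458. The part of width in the difference was not tested further.

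In windows of 200 bp at the centre of each region, short motifs read on both strands were about as frequent in shared as in all aged regions. CGCG was in 12.3% of shared windows (10.6 to 14.2) and 11.1% of all aged windows, TCCCGC in 6.74% and 6.02%, CACGTG, an E-box that contains CpG, in 2.41% and 2.70%, TAATTA, the core bound by many homeobox factors, in 3.85% and 3.05%, and GAGAGA in 23.5% and 22.7%. The E-box CANNTG, which includes CACGTG, was in 58.9% of shared windows (56.2 to 61.6) and 63.9% of all aged windows (63.2 to 64.7). Windows at 39515 coding start sites held CGCG in 47.8% and 10 or more CpG in 53.0%, compared with 10.3% of shared windows for the latter. Aged-only windows reached 10 or more CpG in 8.17% (7.75 to 8.62) and young-only windows in 2.86% (2.06 to 3.95), and CGCG was in 6.13% of young-only windows (4.92 to 7.61). The median number of CpG was 3 in shared and aged-only windows, 2 in young-only windows and 11 at start sites.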

How the data were processed

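Sorted HSCs were profiled by ChIP-seq after mild cross-linking and digestion with micrococcal nuclease, and the labels name an H2AK119ub1 antibody of Cell Signaling Technology. The study pooled bone marrow of several mice for its other assays, and whether the ChIP-seq libraries came from separate animals is not given in the sources used here. Per the submitters' processing notes, reads were aligned to mm10 with Bowtie2 and MACS2 2.2.6 was used, although the study's ChIP-seq methods do not name a peak caller. The deposited H2AK119ub1 and H3K27me3 lists have the layout of MACS broad regions and the H3K4me3 lists that of narrow peaks. The deposited columns used were the fold enrichment, a linear ratio, and the −log10 q-value. The deposited −log10 p-value and the score column were not used. For a broad region these are averages over its length. Duplicated reads, reads with several alignments and the caller's threshold affect which regions are listed.

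Regions that had 1 bp or more in common counted as overlapping, computed in Python 3.11.15 (numpy 2.4.6, pandas 2.3.3, scipy 1.17.1), and the overlap code was tested on simulated data. Start sites (41438 of 21851 protein-coding genes on chromosomes 1 to 19, X and Y) and gene parts came from the GENCODE M21 basic annotation. Sequence was read with pysam 0.24.0 from GRCm38, the assembly of mm10. Shares have 95% Wilson intervals and medians 95% order-statistic intervals. Without replicates no test was made.

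The shared regions, gene families and rules were chosen with earlier results of these data known. Regions named are the 10 widest in the aged and 5 in the young list, the 5 with the highest −log10 q at each age, the 5 widest without H3K27me3 and with aged H3K4me3, the 5 largest and smallest ratios of width, the 3 closest to the limit on either side and those of the Hox clusters. A region is named by a coding start site within 1 kb, else by the nearest. Up to 8 genes per family were named by symbol order. Results for some genes that these rules name are not reported here. Alternatives were a 50% overlap, a stricter q-value, an aged list cut to the length of the young list, joined regions, added sex chromosomes, 50% coverage by the other mark and a wider promoter.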

Additional observations from a re-analysis of the deposited data

Results flagged for a closer look

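The count of regions left out chromosomes X and Y. There, 10 of 972 aged H2AK119ub1 regions overlapped 1 of the 58 young regions (1.03%, 95% Wilson interval 0.560 to 1.88), a number above the limit of 3 set by a count of 0, and this was listed because it lies in data outside the main count. All 10 were on chromosome X. Among them were a region of 408 bp nearest to Sox3, a factor of the nervous system and pituitary, and a region of 448 bp nearest to Ap1s2. Of the 10, 6 overlapped young and 2 aged H3K27me3. The lists also held 3 aged and 0 young regions on unplaced scaffolds.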

How the results depend on the processing

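Of 90 values recomputed under alternatives, 43 stayed within the 95% interval of the reported value (for counts, within 1.5 times) and 47 moved. The cause was not tested. Values are given in the order shared regions, young and aged H3K27me3, young and aged H3K4me3, promoters, genes, GC and CpG ratio, where they moved. With 50% of the aged region overlapped they were 433, 88.9%, 70.7%, 0.924%, 0.693%, 22.2%, 95, 50.3% and 0.270. With 50% of both regions overlapped they were 337, 88.1%, 70.3%, 1.19%, 0.594%, 22.6%, 74, 50.3% and 0.252. With a −log10 q of at least 2 in both lists, the count was 247, young and aged H3K27me3 98.0% and 87.5%, genes 61 and the CpG ratio 0.378. With the aged list cut to the length of the young list, the count was 403, H3K27me3 95.5% and 87.8%, young H3K4me3 4.96%, genes 103 and the CpG ratio 0.379. Joining regions within 1 kb gave H3K4me3 at 14.0% and 8.13%, promoters at 43.5% and a CpG ratio of 0.376. With the other mark at a −log10 q of at least 2, H3K27me3 was at 90.3% and 49.0%. With 50% of the region covered by the other mark, H3K27me3 was at 88.3% and 57.9% and H3K4me3 at 0.241% and 0.160%. A promoter of 2.5 kb to either side gave 46.4% and 446 genes. Chosen after seeing the data, the central 200 bp gave H3K27me3 at 89.4% and 65.3%, H3K4me3 at 1.12% and 0.401%, promoters at 19.3% and a CpG ratio of 0.296. Adding chromosomes X and Y, or leaving out regions over 50% soft-masked or with a fold under 2 (the last 2 chosen after seeing the data), moved none of the 9 values. No paired analysis was possible because a single pooled list stood for the replicates of each mark and age.

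Between settings the aged H3K27me3 share ranged from 49.0% to 87.8% and the young share from 88.1% to 98.0%. Under the stricter q-value in both lists, aged-only regions had young H3K27me3 at 56.6%, so the gap to shared regions was smaller than in the full lists. Depth per library was not part of the lists, and whether regions absent from the shorter young list lay just under the caller's threshold was not tested.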

Other observations

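Joined across gaps of up to 10 kb, the 1247 shared H2AK119ub1 regions formed 653 groups, of which 214 held 2 or more regions and 57 held 5 or more, and 64.8% of the regions were in groups of 2 or more (62.5% for the aged-only regions, whose number, 15549, is much larger at the same gap, so this share is no baseline). After the Hoxc and Hoxd clusters, the largest groups were 12 regions around Tfap2a, a factor of neural crest and skin, 10 at Hoxa and 10 around Gata4. The group at Hoxa holds the 8 regions of that cluster and reaches beyond its end. Others were 9 near Rhbg, an ammonium transporter gene, which summed to 7035 bp in the aged and 3892 bp in the young list, and 8 each around Tbx3, Lhx2, Hoxb13, Cbx8, Tlx1, Nkx2-1, En2, Pax2 and Nr2f1.

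Per chromosome, shared regions ranged from 4.74% of aged regions on chromosome 16 (19 of 401, 95% Wilson interval 3.05 to 7.28) to 11.7% on chromosome 13 (85 of 725, 9.58 to 14.3). Chromosome 19 had the most for its length, with 0.863 per Mb, and chromosome 16 the fewest, with 0.194 per Mb.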
